A study of Mus musculus with 2 samples.

Results

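Fibroblasts receive growth signals through receptor tyrosine kinases, and 10 genes of these systems were followed here: 7 receptors (Pdgfra, Pdgfrb, Fgfr1, Egfr, Met, Ddr2 and Axl) and 3 ligands (Pdgfa, Fgf2 and Gas6). They were chosen by name, and all 10 were among the 22711 genes listed in both files. The cells were immortal mouse embryonic fibroblasts (MEFs), cultured on gelatin in DMEM with NBCS, and both lines came from crosses between C57BL/6N (B6) and PWK/PhJ (PWK) mice. In the B6-Xi line the inactive X chromosome was the B6 copy, and its strain label reads PWK/PhJ X C57BL/6N. In the PWK-Xi line it was the PWK copy, and the label reads C57BL/6N X PWK/PhJ. No other allele or agent is named for either line, and whether a line is 1 clone is not stated. Polyadenylated RNA was sequenced after Smart-seq2 library preparation, with 1 library per line.

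A receptor tyrosine kinase binds its ligand outside the cell, pairs with a second receptor molecule and phosphorylates tyrosines on its inner part, to which adaptor proteins then bind. The adaptors pass the signal to the Ras and MAP kinase cascade and to PI3 kinase and Akt, and proteins such as Sprouty and Errfi1 restrain it. In fibroblasts the PDGF receptors are classic drivers of division and migration, DDR2 is activated by fibrillar collagen rather than by a soluble factor, and AXL is activated by GAS6.

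Each value below is a single library, so there was no replicate spread, no test between the lines and no p-value. Levels are FPKM, in which fragment numbers are divided by transcript length and by the size of the library, and a gene's total is the sum of its B6 and PWK alleles. All genes together summed to 285397 FPKM in B6-Xi and to 256196 in PWK-Xi, with 10127 and 12907 genes above 0, and the read depth is unknown. Values of exactly 0 are not rare and include genes that fibroblasts normally express (Vim, B2m and Ppia in both lines), so such a gene is only said to be listed at 0. Of 12 fibroblast markers, 11 in B6-Xi and all 12 in PWK-Xi had at least 1 FPKM (medians 17.2 and 21.5 FPKM, sums 13907 and 3203 FPKM). Most of both sums was S100a4, with 13006 and 2321 FPKM. Lum was listed at 0 in B6-Xi. Among markers of other cells that carry these receptors, the 7 mural markers summed to 0.889 and 2.63 FPKM, the 6 endothelial to 0.0476 and 0.205 FPKM, and the 7 epithelial to 2.68 and 2.08 FPKM. The 5 measured immune markers summed to 1.56 and 3.55 FPKM, and the 6 neural and glial markers to 3.17 and 5.42 FPKM. The highest single markers of their lists included Tubb3 (2.91 and 5.32 FPKM), Cd68 (1.39 and 3.25 FPKM), Krt19 (2.68 and 0.782 FPKM) and, in PWK-Xi, Des (2.11 FPKM). Rgs5, Cdh5, Epcam and Sox10 were listed at 0 in both lines. Given the 0 values named above, this does not show that such cells were absent.

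Axl was the most abundant of the 10 transcripts in both lines and Ddr2 the second. In B6-Xi the order by total FPKM went on with Pdgfa, Gas6, Fgfr1, Pdgfrb, Pdgfra, Egfr and Met. In PWK-Xi it went on with Pdgfra, Fgfr1, Pdgfrb, Pdgfa, Egfr, Met and Gas6. Pdgfra thus moved from the seventh place to the third, and Gas6 from the fourth to the ninth. Ddr2 and Pdgfa lay next to each other in B6-Xi, at 27.75 and 27.73 FPKM, and with 1 library per line no spread is known by which neighbours in these orders could be told apart. Over the 7 receptors, the summed level was 104.7 FPKM in B6-Xi against 194.8 FPKM in PWK-Xi. This sum is of FPKM as deposited, and abundant receptors such as Axl and Ddr2 weigh most in it. Of the 6 receptors tested singly below, only Pdgfra passed 2-fold relative to the median gene.

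**Figure D1:**
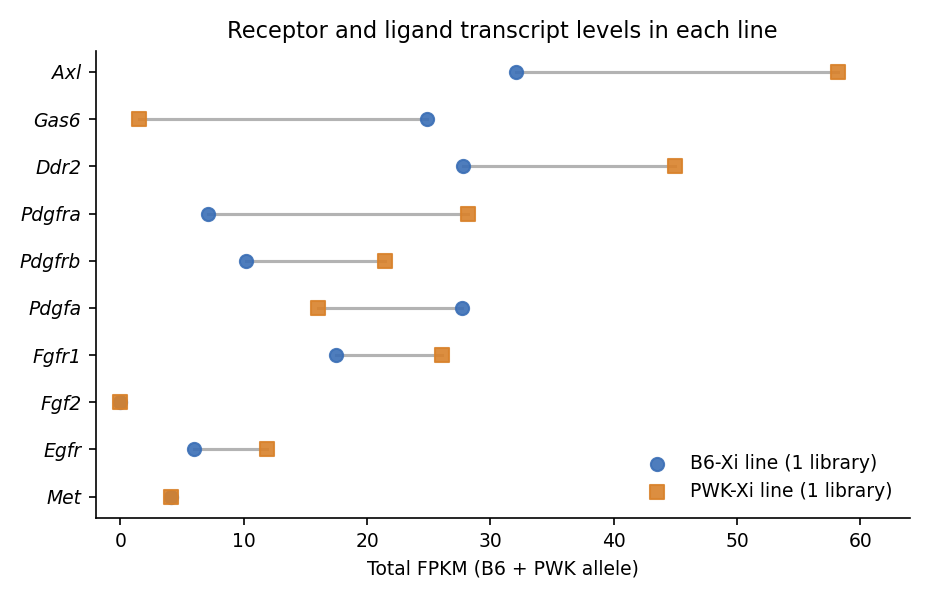
Total FPKM (x axis, both alleles summed) of the 7 receptors and 3 ligands in the B6-Xi line (circles) and the PWK-Xi line (squares), 1 library each, with a grey line joining the values of a gene. Gas6 and Pdgfa lie to the left in PWK-Xi, Met stays at 4.09 and 4.10 FPKM, Fgf2 is at 0 in both, and the other 6 genes lie to the right in PWK-Xi.

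Differences in total level are given as log2((PWK-Xi + 1)/(B6-Xi + 1)), less the median of this value over the 5241 genes tested, which was 0.19. Genes were tested if they had at least 5 FPKM in either line and were above 0 in both. The added 1 FPKM understates the change of low genes. A gene was counted as higher or lower at a value of at least 1 or at most -1, which is 2-fold relative to the median gene. By this rule 8.93% of all tested genes were lower and 10.1% were higher in PWK-Xi. Of the 10 receptors and ligands, 8 were tested. Fgf2 was listed at 0, and Met stayed below 5 FPKM in both lines. Gas6 was counted as lower, Pdgfra as higher, and 6 lay within 2-fold. These shares of members, 1 of 8 in each direction, are near the background. All 6 tested receptors had a value above 0, between 0.35 and 1.65 with a median of 0.67. Centring on the median itself puts 50% of all tested genes above 0. Met, the receptor not tested, had -0.19 on the same scale, so the 7 receptors did not all lie on 1 side.

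Of the PDGF genes tested, Pdgfra was past 2-fold, and Pdgfrb, Pdgfa and Pdgfc were not. Pdgfra, the receptor that binds PDGF-AA and marks fibroblast lineages, had 7.13 FPKM in B6-Xi against 28.2 FPKM in PWK-Xi. That is 3.95-fold higher in PWK-Xi, a centred log2 difference of 1.65. Its level lay above that of 65.8% of the genes above 0 in B6-Xi and of 89.9% of them in PWK-Xi. Pdgfrb, the receptor for PDGF-BB that is typical of mural cells and activated fibroblasts, had 10.2 and 21.4 FPKM, a centred difference of 0.81, short of 2-fold. Pdgfra was the lower of the 2 receptors in B6-Xi, at 0.699 times the level of Pdgfrb, and the higher in PWK-Xi, at 1.32 times.

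Pdgfa encodes the A chain of PDGF. It had 27.7 FPKM in B6-Xi against 16.1 FPKM in PWK-Xi, 1.73-fold lower, and its centred difference of -0.95 was just short of 2-fold. The level of this ligand was 3.89 times that of its receptor Pdgfra in B6-Xi and 0.569 times in PWK-Xi. Among the other PDGF ligands, Pdgfc had 6.23 and 4.64 FPKM, while Pdgfb and Pdgfd stayed at 1.59 FPKM or less in both lines. Antisense genes overlap exons of Pdgfra, Pdgfa and Fgfr1 in the annotation. Strandedness of the libraries is not stated in the labels, and without it reads of such genes could not be told apart from those of the receptor or ligand.

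The promoter of Pdgfra is shown because it is the receptor with the largest difference. The window runs from 250 bases before to 50 after the RefSeq gene start, on the plus strand of GRCm38.p6 (chr5:75152001-75152300). Its sequence, 5′ to 3′, is that of the reference strain and not read from these cells. Capitals would mark the GC box motif GGGCGG on either strand, and this window holds none.
Pdgfra: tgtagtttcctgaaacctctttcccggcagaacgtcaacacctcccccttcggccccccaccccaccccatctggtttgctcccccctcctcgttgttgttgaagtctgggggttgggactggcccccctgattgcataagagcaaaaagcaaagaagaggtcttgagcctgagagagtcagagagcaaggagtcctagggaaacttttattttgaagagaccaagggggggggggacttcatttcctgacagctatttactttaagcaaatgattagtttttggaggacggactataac
It holds 5 CpG dinucleotides, against a median of 7 over 32851 promoter windows of the same length, of which 35.7% have a GC box.

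Of the FGF system, the receptor was measured in both lines and the ligand was listed at 0 in both. Fgfr1, the main FGF receptor of fibroblasts, had 17.5 FPKM in B6-Xi against 26.1 FPKM in PWK-Xi, with a centred difference of 0.35. This was the smallest difference among the 6 tested receptors. Fgf2, basic FGF, was listed at 0 for both alleles in both lines, as were 42.2% of all genes. Nudt6, which lies antisense to Fgf2 and shares exon sequence with it, was also listed at 0 in both. No level, share or fold can therefore be given for Fgf2.

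Other FGF genes were read from fixed lists. Of 11 other genes of FGF ligands and a binding protein, Fgf7 was the only one tested. Fgf7, keratinocyte growth factor, is secreted by fibroblasts and binds mainly an FGFR2 isoform. It had 11.8 FPKM in B6-Xi against 73.9 FPKM in PWK-Xi, 6.26-fold higher and a centred difference of 2.35. In B6-Xi its PWK allele was at 0, beside 43.6 FPKM in PWK-Xi, and from the B6 allele alone (11.8 and 30.3 FPKM) the centred difference was 1.12. Fgf10, its close relative, was listed at 0 in B6-Xi, with 23.3 FPKM in PWK-Xi. It was named after its value was seen, and among genes that reached 5 FPKM in PWK-Xi, 4.76% were at 0 in the other line. Of the other FGF receptors, Fgfr2 had 2.86 and 6.24 FPKM, and Fgfrl1, which lacks the kinase domain, had 5.87 and 4.94 FPKM.

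Egfr and Met were the least abundant receptors. Egfr, the receptor for EGF and its relatives, had 5.95 FPKM in B6-Xi against 11.8 FPKM in PWK-Xi, a centred difference of 0.69, within 2-fold. Of its ligands, Hbegf was the most abundant and close in both lines, at 9.61 and 9.89 FPKM. Ereg had 2.93 and 5.02 FPKM, and Areg was listed at 0 in B6-Xi, with 3.41 FPKM in PWK-Xi. Btc and Epgn went the other way, at 0.393 FPKM or less in both lines. Erbb2, the partner receptor without a known ligand of its own, had 2.79 and 3.25 FPKM.

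Met, the receptor for hepatocyte growth factor, had 4.09 FPKM in B6-Xi against 4.10 FPKM in PWK-Xi. It was the closest of the 9 genes above 0. The gene of its ligand, Hgf, was listed at 0 in B6-Xi, with 3.79 FPKM in PWK-Xi.

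Ddr2, the collagen receptor, had 27.7 FPKM in B6-Xi against 45.0 FPKM in PWK-Xi, a centred difference of 0.48. Of 4 tested genes of its collagen ligands, 2 were at least 2-fold lower and 1 higher, where 8.93% and 10.1% of all tested genes were. Col1a2, a chain of type I collagen, had 134.3 and 69.2 FPKM (centred log2 -1.14), and Col3a1 had 6.04 and 2.21 FPKM (centred log2 -1.33). Col5a2 had 20.9 and 66.8 FPKM (centred log2 1.44), and Col1a1 had 54.6 and 35.5 FPKM, within 2-fold. The call of Col1a2 ended without centring (-0.95), with libraries scaled to equal summed FPKM (-0.79) and from the B6 allele alone (-0.92), and that of Col3a1 from the B6 allele alone (-0.52). Ddr1, the other collagen receptor of this family, stayed at 3.01 and 2.62 FPKM. 3110045C21Rik, an antisense gene that shares exon sequence with Ddr2, was listed at 0 in B6-Xi, with 5.55 FPKM in PWK-Xi, and without strand its reads and those of Ddr2 could not be told apart.

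Axl and Gas6, a receptor and its ligand, differed in opposite directions. Axl had 32.1 FPKM in B6-Xi against 58.2 FPKM in PWK-Xi, 1.81-fold higher and a centred difference of 0.64, within 2-fold. Gas6, a vitamin K-dependent protein that bridges AXL and phosphatidylserine, had 24.8 FPKM in B6-Xi against 1.54 FPKM in PWK-Xi. That is 16.1-fold lower in PWK-Xi, a centred difference of -3.54, the largest of the 8 genes tested. Its level lay above that of 87.4% of the genes above 0 in B6-Xi and of 36.3% in PWK-Xi. The Axl level was 1.29 times that of Gas6 in B6-Xi and 37.8 times in PWK-Xi.

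The other ligand gene of the TAM receptors (Tyro3, Axl and Mertk) differed the opposite way from Gas6. Pros1, protein S, had 6.45 FPKM in B6-Xi against 38.4 FPKM in PWK-Xi, 5.96-fold higher and a centred difference of 2.21. Of the other 2 receptors, Mertk had 0.389 and 0.206 FPKM, and Tyro3 was listed at 0 in B6-Xi, with 2.98 FPKM in PWK-Xi. Axl was thus the most abundant TAM receptor in both lines. Tmem255b, whose exons overlap Gas6 on the opposite strand, was listed at 0 in both lines.

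The promoters of this ligand and its receptor are shown side by side because their levels differed in opposite directions. Both windows are of the minus strand of GRCm38.p6, chr8:13494486-13494785 for Gas6 and chr7:25788684-25788983 for Axl, written 5′ to 3′ along the gene. Capitals mark the GC box motif, GGGCGG or its reverse complement CCGCCC.
Gas6: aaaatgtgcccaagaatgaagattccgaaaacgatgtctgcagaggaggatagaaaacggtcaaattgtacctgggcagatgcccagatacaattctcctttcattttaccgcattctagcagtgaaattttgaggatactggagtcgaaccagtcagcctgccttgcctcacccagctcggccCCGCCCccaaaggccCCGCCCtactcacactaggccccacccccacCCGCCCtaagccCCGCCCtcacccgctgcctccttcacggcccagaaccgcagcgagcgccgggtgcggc
Axl: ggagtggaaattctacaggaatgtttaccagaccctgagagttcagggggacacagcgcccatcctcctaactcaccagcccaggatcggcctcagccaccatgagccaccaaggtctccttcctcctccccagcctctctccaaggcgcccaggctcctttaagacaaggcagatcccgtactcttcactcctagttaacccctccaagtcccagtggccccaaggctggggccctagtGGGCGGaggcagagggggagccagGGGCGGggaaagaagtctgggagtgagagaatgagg
The Gas6 window holds 4 GC boxes, all as CCGCCC, and 17 CpG dinucleotides. The Axl window holds 2, both as GGGCGG close to the gene start, and 6 CpG dinucleotides. A match is a description of the letters only. On both strands of these windows and that of Pdgfra, the TATA motif TATAAA, present in 13.6% of all windows, was not found. The same held for the AP-1 motif TGACTCA, present in 5.20%, and for the E-box motif CACGTG, present in 7.15%.

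The hybrid genome splits each level into a B6 and a PWK allele. The B6 share of a gene is its B6 FPKM as a percentage of its total. The 9 genes above 0 had shares between 10.1% and 66.7% in B6-Xi (median 51.7%) and between 33.9% and 80.5% in PWK-Xi (median 54.6%), so both alleles of all 9 were present in both lines. Over the 7435 autosomal genes that reached 1 FPKM in each line the medians were 50.0% and 52.7%. Many shares in these files are simple ratios: 47.1% of genes that reached 1 FPKM in B6-Xi, and 12.8% of those that did in PWK-Xi, lay within 0.001 points of a fraction whose denominator is 10 or less. Among the members this held for Met in B6-Xi (66.7%) and for none in PWK-Xi.

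The shares of 3 members, Gas6, Egfr and Pdgfa, differed between the lines by at least 20 points, where 34.6% of autosomal genes did. A count of 3 of 9 is near that background. Gas6 came mostly from PWK in B6-Xi, with a B6 share of 10.1%, and from both alleles in PWK-Xi, with 55.9%. Egfr likewise had 16.3% and 54.0%. The 55.9% of Gas6 rests on a total of 1.54 FPKM, little above the minimum of 1 FPKM. Pdgfa had 53.2% in B6-Xi and 80.5% in PWK-Xi. In the other direction, Pdgfra had 51.7% and 33.9%, a difference of 17.8 points. Axl and Fgfr1 stayed closest, at 52.6% and 53.9% for Axl and 48.7% and 51.2% for Fgfr1. Pdgfrb had 40.9% and 54.6%, Ddr2 61.1% and 72.1%, and Met 66.7% and 59.6%.

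**Figure D2:**
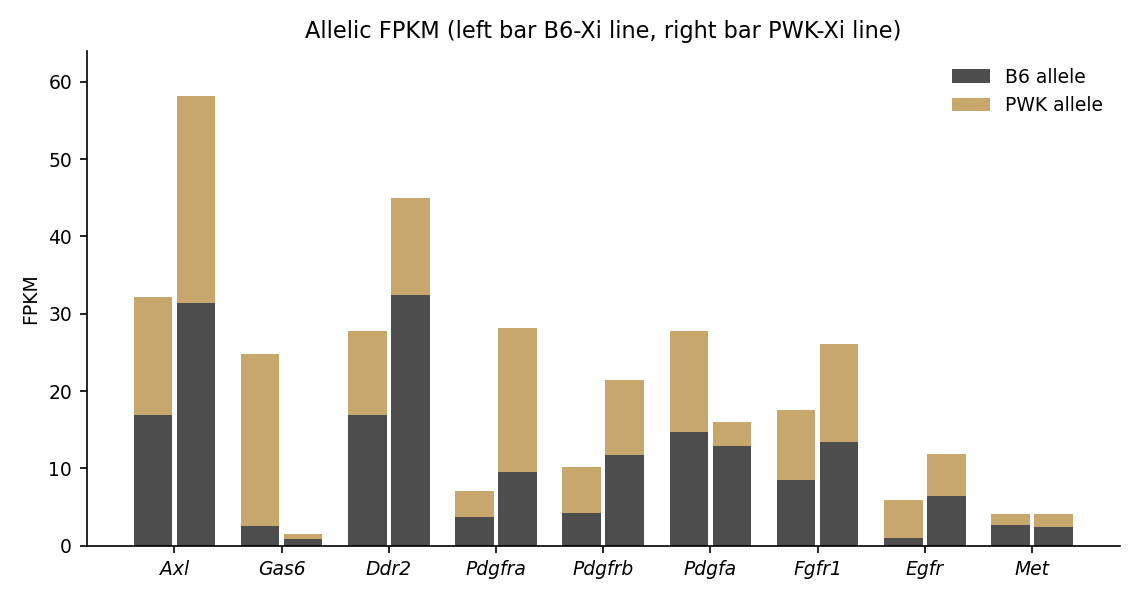
FPKM (y axis) of the B6 allele (dark) and the PWK allele (light) for the 9 genes above 0, stacked, with the B6-Xi line as the left bar and the PWK-Xi line as the right bar of each pair. The PWK allele of Gas6 (22.3 FPKM) makes up most of its left bar and 0.679 FPKM of its right bar, and the B6 allele of Egfr is 0.969 FPKM on the left and 6.40 FPKM on the right.

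Read allele by allele, Gas6 was lower from both copies in PWK-Xi. Its PWK allele had 22.3 FPKM in B6-Xi against 0.679 FPKM in PWK-Xi, 32.9-fold lower. Its B6 allele had 2.52 and 0.860 FPKM, 2.93-fold lower. Pdgfra was higher from both copies, 5.41-fold for the PWK allele (3.44 and 18.6 FPKM) and 2.59-fold for the B6 allele (3.69 and 9.56 FPKM). For Egfr and Pdgfa the difference lay mainly in 1 allele. The B6 allele of Egfr had 0.969 and 6.40 FPKM, 6.61-fold higher, against 4.98 and 5.45 FPKM for the PWK allele. The PWK allele of Pdgfa had 13.0 and 3.13 FPKM, 4.15-fold lower, against 14.8 and 12.9 FPKM for the B6 allele.

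Ddr2 was 1.91-fold higher from the B6 allele (17.0 and 32.4 FPKM) and 1.16-fold from the PWK allele (10.8 and 12.6 FPKM). Axl was 1.86-fold higher from the B6 allele and 1.77-fold from the PWK allele, and Fgfr1 1.57-fold and 1.42-fold, so both copies of these 2 genes differed by about the same ratio. Pdgfrb was 2.80-fold higher from the B6 allele and 1.62-fold from the PWK allele. On the centred log2 scale of each allele, the B6 allele was at least 2-fold higher for Pdgfra, Pdgfrb and Egfr and lower for Gas6, where 10.8% and 9.06% of genes were. The PWK allele was higher for Pdgfra and lower for Gas6 and Pdgfa, where 11.8% and 12.1% were.

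Whole chromosomes or their parts lean to 1 strain in these lines, so each share was set beside the median of the 20 nearest measured genes, 10 on each side. In B6-Xi, Gas6 and Egfr lay more than 15 points from that median, as did 35.6% of autosomal genes, and in PWK-Xi Pdgfa did, as did 19.7%. Of the 18 pairs of a member and a line, these were 3, where 27.6% of such pairs over all autosomal genes passed the same limit. Around Gas6, on chromosome 8, the neighbours had a median B6 share of 51.4% in B6-Xi, 41.3 points above its own. Around Egfr, on chromosome 11, they had 46.8%, 30.5 points above. In PWK-Xi both genes lay within 4 points of their neighbours, which had 52.3% and 51.8%, though Gas6 had a total of only 1.54 FPKM there.

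Pdgfa and Pdgfra both lie on chromosome 5, which had a median B6 share of 51.0% in B6-Xi and 36.5% in PWK-Xi. Pdgfra followed its neighbours in PWK-Xi, at 33.9% against 33.2%. Pdgfa did not, at 80.5% against 39.3%. The 2 measured genes next to Pdgfa had different shares: Prkar1b had 97.1% in B6-Xi and 89.7% in PWK-Xi, and Fam20c had 100% and 38.6%. The share of Ddr2, on chromosome 1, was 72.1% in PWK-Xi beside 72.7% for its neighbours. In B6-Xi it was 61.1% beside 49.6%.

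**Figure D3:**
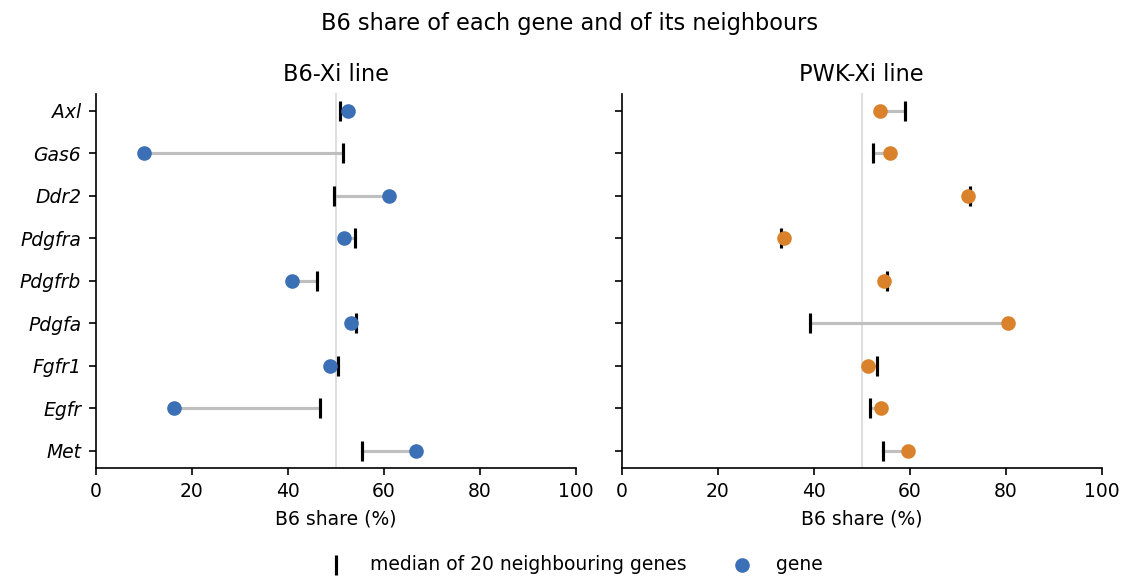
B6 share in percent (x axis) of each gene above 0 (points) and the median of its 20 nearest measured genes (black ticks), in the B6-Xi line (left) and the PWK-Xi line (right), 1 library each. Gas6 and Egfr lie far left of their neighbours in B6-Xi and Pdgfa far right in PWK-Xi, while Pdgfra at 33.9% and Ddr2 at 72.1% lie beside theirs in PWK-Xi.

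Total levels of the neighbours give the same kind of background. Around Pdgfra, 12 neighbours were tested, with a median centred log2 difference of 0.42, and 2 of them were at least 2-fold higher. Its own value was 1.65. Around Gas6, 14 neighbours had a median of -0.12 and none was at least 2-fold lower, beside -3.54 for Gas6. For Axl the median was 0.10, for Ddr2 0.21, for Fgfr1 0.19, for Egfr -0.07, for Pdgfa 0.05 and for Pdgfrb -0.27. The part of copy number in any of these differences was not tested.

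The wider pathway was read from 13 lists, with 156 genes besides the 10 above, of which 154 were found and 59 tested. Of the 59, 7 were at least 2-fold lower (8.93% of all tested genes were) and 8 were higher by 2-fold or more (10.1%), while the other 44 did not reach 2-fold. The median centred difference over all 59 was 0.04. None of 19 tested adaptors and kinases downstream was past 2-fold in either direction, and their median was 0.03. The most abundant was Rras, a Ras-related GTPase gene, with 31.9 and 23.1 FPKM.

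Of 20 measured feedback inhibitors, 14 stayed below 5 FPKM in both lines and 6 were tested. Of these 6, 2 were higher and none lower, where 10.1% and 8.93% of all tested genes were. Errfi1, which binds and inhibits EGFR, had 4.09 FPKM in B6-Xi against 13.3 FPKM in PWK-Xi (centred log2 1.29), and the tyrosine phosphatase gene Ptpn2 had 2.92 and 13.7 FPKM (centred log2 1.71). The most abundant, the Ras GTPase-activating protein gene Rasa1, had 13.0 and 20.8 FPKM. Among 8 tested co-receptors, Nrp2, a neuropilin, was higher (16.8 and 42.2 FPKM, centred log2 1.09) and the heparan sulfate proteoglycan gene Gpc1 lower (21.3 and 11.5 FPKM, centred log2 -1.03). From the B6 allele alone Gpc1 had a difference of 0.27, and from the PWK allele alone Nrp2 had 0.37. The call of Gpc1 also ended without centring (-0.84), with equal summed FPKM (-0.69) and without a filter on low values (-0.97). Cd44 was the most abundant, at 38.2 and 31.5 FPKM.

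Of 31 other receptor tyrosine kinases, 29 stayed below 5 FPKM in both lines. Ryk, a Wnt-binding receptor, was the most abundant, at 18.5 and 20.9 FPKM. The ephrin receptor gene Epha2 was lower in PWK-Xi, at 5.75 and 1.69 FPKM (centred log2 -1.52). Of 13 tested response genes, 3 were lower and 2 higher, where 8.93% and 10.1% of all tested genes were. The G1 cyclin genes Ccnd1 and Ccnd2 had differences of -4.08 and -3.15, and Phlda1 had 17.0 and 8.13 FPKM (centred log2 -1.18). The AP-1 genes Fos (3.62 and 16.9 FPKM, centred log2 1.76) and Fosl1 (4.41 and 12.3 FPKM, centred log2 1.11) were higher, and both had a B6 share of 0% in B6-Xi. From the PWK allele alone the differences were 0.82 for Fos, 0.27 for Fosl1 and -0.26 for Phlda1, all short of 2-fold. The call of Phlda1 also ended without centring, at -0.98, and with equal summed FPKM, at -0.84. The direction of this list was therefore not uniform, with a median of 0.05.

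**Figure D4:**
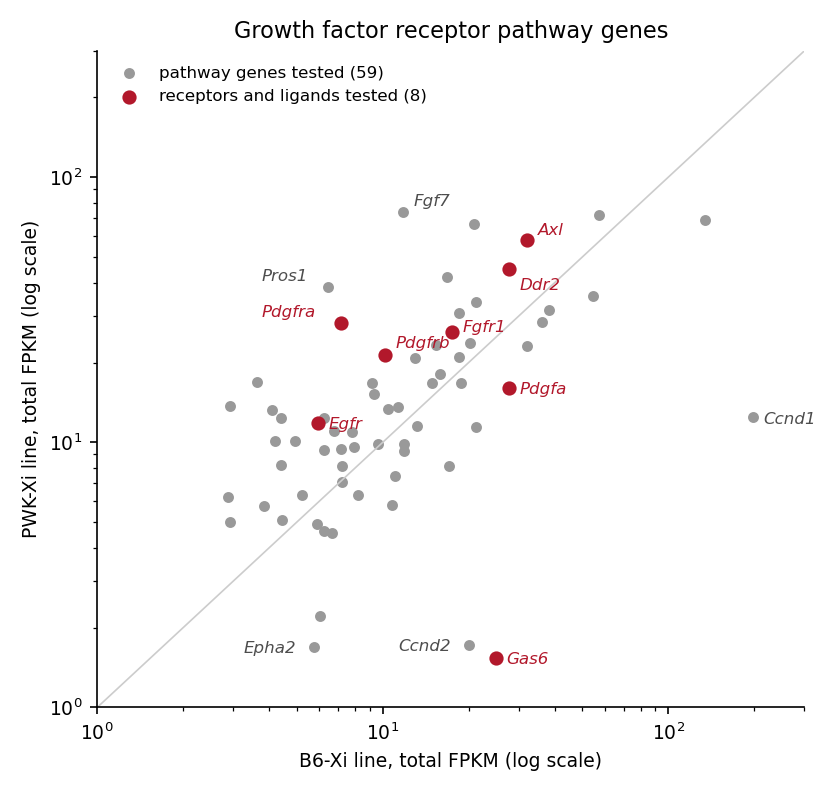
Total FPKM in the PWK-Xi line (y axis) against the B6-Xi line (x axis), both on log scales, for the 8 receptors and ligands tested (red, named) and 59 other pathway genes tested (grey), with the line of equal level. Gas6 (24.8 and 1.54 FPKM) lies far below the line with Ccnd1 and Ccnd2, and the 6 tested receptors lie above it.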

How the data were processed

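The authors deposited FPKM values for 1 library per line, with 1 column per allele per the file headers. Per the submitters' processing notes, the build was mm9 and the tools StringTie 2.1.1, HISAT2 2.2.0 and Trim Galore 0.6.4. The step that split reads by allele is not given in the sources used. The files hold no counts, so the depth is unknown, and values carry no interval.

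Totals, B6 shares and differences (pseudocount 1, centred on the median of genes tested) were computed with pandas 2.3.3 and numpy 2.4.6 in Python 3.11.15 and drawn with matplotlib 3.10.9. Only the difference in total level was tested on simulated data, and the shares and neighbour medians were not. Genes were ordered along GRCm38 by symbol, from GENCODE and, failing that, RefSeq. All 10 members matched, and 95 of the 22711 symbols did not. No mm9 coordinates were used. Promoter sequences are RefSeq's (GRCm38.p6). Windows of Fgfr1 and Pdgfrb are not shown.

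The members, lists and thresholds were chosen with earlier results of these data known. Named from each list were genes past 2-fold and the most abundant gene; other genes were named as relatives of a member or after seeing their values. Hras, Spry3 and Adgre1 were not analysed here.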

Additional observations from a re-analysis of the deposited data

How the results depend on the processing

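No paired analysis was possible because each line has 1 library, so no library could be left out either. Under other settings, 337 of 360 values of single genes kept their direction where called and their side of the threshold, and 37 of 43 counts stayed within 1.5 times. Part of the 360 could hardly change. A different minimum FPKM leaves the share difference of a gene as it is, and shifts all level differences by the same amount. Gas6 stayed lower and Pdgfra higher in all 9 alternatives for total or allelic level. Both calls only just held from the B6 allele alone, at -1.09 for Gas6 and 1.004 for Pdgfra. That allele of Gas6 was also low, at 2.52 and 0.860 FPKM. Without centring, 2 members were higher (Pdgfrb joined, at 1.002) and 4 pathway genes were lower and 9 higher, and with equal summed FPKM 3 members were higher (Egfr also joined, at 1.03) and 4 pathway genes lower and 12 higher. With the B6 allele alone 3 members were higher, and with the PWK allele alone 2 members were lower (Pdgfa joined, at -1.83). Gpc1, lower by total level, had 0.27 from the B6 allele alone. The split of all tested genes at 2-fold, 8.93% lower and 10.1% higher, became 5.95% and 14.1% without centring and 4.67% and 18.7% with equal summed FPKM. With a minimum of 5 FPKM in both lines Gas6 is not measured, which leaves Egfr and Pdgfa with share differences of at least 20 points.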

Other observations

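Alleles of the wider pathway were uneven more often in B6-Xi than in PWK-Xi. Among 87 autosomal pathway genes that reached 1 FPKM in each line, 17.2% had a B6 share of at most 10% or at least 90% in B6-Xi and 2.30% in PWK-Xi, beside 13.6% and 2.17% of all 7435 autosomal genes. In B6-Xi 9 came from PWK, among them the response genes Fos, Fosl1, Jun and Myc and the kinase gene Akt1, all at a B6 share of 0%, and 6 came from B6, among them Fgf7 and Junb at 100%. Akt1 and Fos lie on chromosome 12, which had a median B6 share of 0% in B6-Xi. In PWK-Xi these 7 named genes had shares between 40% and 55.9%. These genes were named after their values were seen. Shares in B6-Xi are also more often simple ratios, and the part of this in the counts was not tested.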
